A study of Oryza sativa with 6 samples.

Results

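The respiratory burst oxidase homologs (RBOH) are the plant NADPH oxidases, and rice (Oryza sativa) has 9 of them, named RBOHA to RBOHI. Their levels were taken from RNA-seq of anthers, using the 9 rows whose annotation identifiers are assigned to these genes, out of 94013 rows in the table. All 9 identifiers were present. The 6 libraries came from anthers of 3-month-old plants, 3 from the dmd1 mutant and 3 from the wild type (WT), covering the span from tetrads to early microspores. Per the labels' protocols, the RNA integrity number was 6.5 or above. The labels give neither the dmd1 allele nor the parental cultivar, and they do not say how many plants were pooled in a library. Both sets of 3 are biological replicates, per the series design. In bulk anther RNA, fewer cells of a type and less RNA per cell cannot be told apart.

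RBOH proteins sit in the plasma membrane and pass electrons from cytosolic NADPH to oxygen outside the cell, which gives superoxide. Superoxide dismutases turn superoxide into hydrogen peroxide, and catalases and peroxidases remove the peroxide. The amino-terminal part of an RBOH protein binds calcium through EF-hands, is phosphorylated by calcium-dependent and receptor-like cytoplasmic kinases, and binds RAC small GTPases. In anthers, reactive oxygen is known for its link to the timed death of the tapetum, the inner wall layer that feeds the microspores. Arabidopsis RBOHE is known for that timing, and Arabidopsis RBOHH and RBOHJ are known for pollen tube growth. The letters were given separately in rice and Arabidopsis, so the same letter does not name the same gene.

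Values are FPKM, fragments per kilobase of transcript scaled by the number of mapped fragments, so levels of different genes can be set side by side. A member was counted as expressed in anthers when it reached 1 FPKM in all 3 libraries of a genotype. By this rule 8 of the 9 members were expressed, and all 8 were so in both genotypes. RBOHD (OS05G0465800) was the exception, at 0.164, 0.081 and 0.076 FPKM in dmd1 libraries 1 to 3 and at 0.076, 0.088 and 0.090 FPKM in WT libraries 1 to 3. No RBOHD value reached 1 FPKM, and the gene was left out of the test for this reason. A limit of 2 FPKM kept 6 members and dropped RBOHA and RBOHH, while a limit of 0.5 FPKM kept the same 8. Libraries dmd1 1 and WT 2 deviated alike: across tested rows their deviations from their genotype means had a correlation of 0.49. Library dmd1 3 deviated the other way, with correlations of -0.48 with WT 2, 0.33 with WT 1 and 0.35 with WT 3. Deviations from a mean of 3 libraries are tied to each other, and no label names a batch for this pattern. The median tested row of the table had a mean of 9.15 FPKM over the 6 libraries.

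RBOHF was the only one of the 8 tested RBOH genes that was called changed between the genotypes, and it was higher in dmd1. RBOHF (OS08G0453700) was at 59.1, 73.2 and 112 FPKM in dmd1 libraries 1 to 3, and at 16.8, 22.3 and 16.1 FPKM in WT libraries 1 to 3. The lowest dmd1 library thus lay far above the highest WT library. The means were 81.3 ± 27.2 FPKM in dmd1 and 18.4 ± 3.37 FPKM in WT (SD, n = 3 each), a 4.42-fold ratio of means. The log2 change of FPKM + 1 was 2.05 ± 0.26 (SE, limma adjusted p = 0.0082), with a 95% interval from 1.43 to 2.66. Of the 25474 rows tested, 164 had a larger log2 change.

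To be called, a row needed a limma adjusted p under 0.05 together with a log2 change of 1 or more, up or down. Among the 8 tested RBOH members 1 was called higher and none lower, while 3.16% of all tested rows were called higher and 3.54% lower. With so few members, these counts do not set the family apart from the table. The median log2 change was -0.01 over the 8 members and 0.12 over all tested rows. RBOHF stayed called in each of the 17 alternative fits, with log2 changes from 1.80 to 2.39, the highest being the value without dmd1 library 1 and WT library 2. The range over the fits that left out 1 library was 1.80 to 2.25, and the highest adjusted p among them was 0.0439 in limma, without WT library 1.

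**Figure D1:**
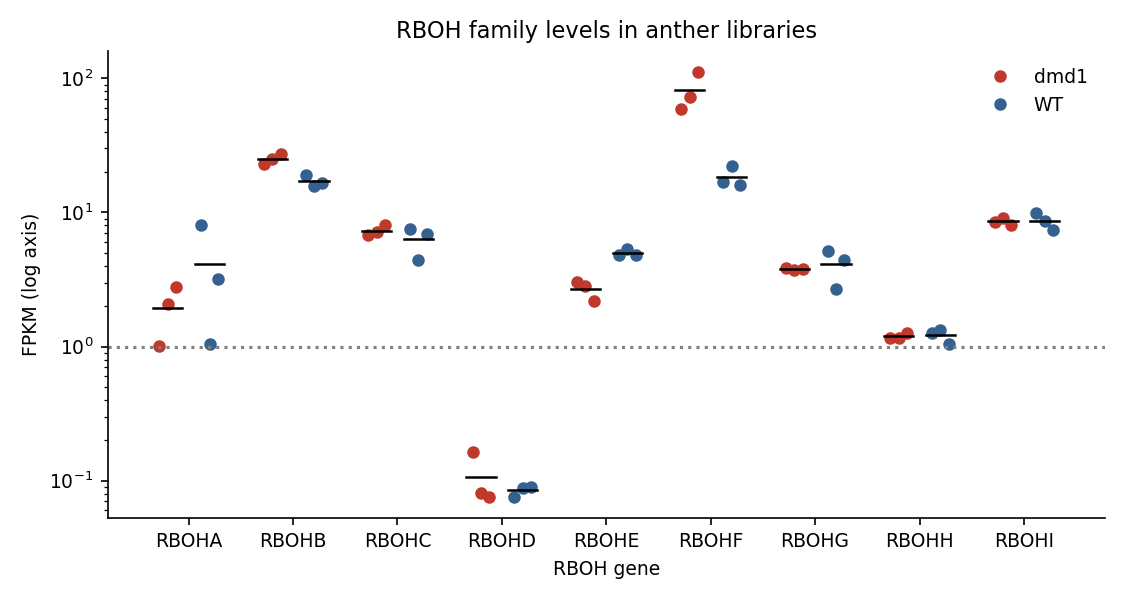
FPKM of the 9 RBOH genes on a log axis, with 1 point per library (dmd1 left, WT right of each gene), a bar at each mean and a dotted line at 1 FPKM. RBOHF in dmd1 lies between 59.1 and 112 FPKM, above its WT libraries, and RBOHD lies under the line in all 6 libraries.

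RBOHB and RBOHE were not called, and their log2 changes were smaller and of opposite sign. RBOHB (OS01G0360200), whose amino-terminal part in rice is known to bind the GTPase RAC1, was at 22.9, 25.2 and 27.2 FPKM in dmd1 libraries 1 to 3 and at 19.0, 15.7 and 16.7 FPKM in WT libraries 1 to 3. All dmd1 libraries lay above all WT libraries, with means of 25.1 ± 2.15 FPKM in dmd1 and 17.1 ± 1.71 FPKM in WT (SD, n = 3 each). Its log2 change, 0.53 ± 0.13 (SE, limma adjusted p = 0.0436), passed the adjusted p and missed the fold minimum, with a 95% interval from 0.22 to 0.83.

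RBOHE (OS01G0835500) was at 3.02, 2.81 and 2.20 FPKM in dmd1 libraries 1 to 3 and at 4.85, 5.37 and 4.81 FPKM in WT libraries 1 to 3. Here all dmd1 libraries lay below all WT libraries. The means were 2.67 ± 0.42 FPKM in dmd1 and 5.01 ± 0.31 FPKM in WT, and the log2 change was -0.72 ± 0.16 (SE, limma adjusted p = 0.0338), with a 95% interval from -1.09 to -0.34. RBOHE too missed the fold minimum. On the adjusted p alone, 2 of the 8 members were higher and 1 was lower, while the rule took 7.80% of all tested rows as higher and 5.18% as lower. The passes of RBOHB and RBOHE were fragile. RBOHB passed the adjusted p in 4 of the 17 alternative fits and RBOHE in 8, and neither passed with any 1 library left out. Their lowest to highest limma adjusted p in those fits without 1 library were 0.0718 to 0.139 for RBOHB and 0.0614 to 0.105 for RBOHE. The signs of both held in all 17, with log2 changes from 0.41 to 0.72 for RBOHB and from -0.89 to -0.56 for RBOHE.

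Ranges that do not overlap between 3 and 3 libraries were common in the table. They were seen in 25.3% of tested rows with dmd1 above WT and in 13.1% with dmd1 below WT. Among the 8 tested members, RBOHF and RBOHB lay above and RBOHE lay below, and the other 5 overlapped.

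RBOHA (OS01G0734200) had the widest spread of the tested members. It was at 1.01, 2.08 and 2.78 FPKM in dmd1 libraries 1 to 3 and at 8.12, 1.05 and 3.17 FPKM in WT libraries 1 to 3, so the highest WT library was 7.76 times the lowest. The genotypes overlapped, and WT library 2 and dmd1 library 1 were the low ones. The log2 change was -0.58 ± 0.55 (SE, limma adjusted p = 0.521), with a 95% interval from -1.90 to 0.75. It was -0.03 without WT library 1 and -1.11 without WT library 2, so the size of any difference is not known from these libraries.

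RBOHC, RBOHG, RBOHH and RBOHI had log2 changes close to 0, and their libraries overlapped. RBOHC (OS05G0528000) averaged 7.31 ± 0.62 FPKM in dmd1 and 6.30 ± 1.67 FPKM in WT (SD, n = 3 each). RBOHG (OS09G0438000) was at 3.88, 3.74 and 3.81 FPKM in dmd1 libraries 1 to 3, against 5.19, 2.67 and 4.45 FPKM in WT libraries 1 to 3. The dmd1 libraries of RBOHG lay close together, inside the wider range of its WT libraries. RBOHH (OS12G0541300), known in rice for the formation of air spaces in roots, was the lowest of the expressed members, at 1.19 ± 0.06 FPKM in dmd1 and 1.21 ± 0.14 FPKM in WT. RBOHI (OS11G0537400) was at 8.54, 9.17 and 8.04 FPKM in dmd1 libraries 1 to 3 and at 9.86, 8.61 and 7.42 FPKM in WT libraries 1 to 3.

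The 95% intervals of the log2 changes give a range for each difference, for FPKM as deposited. These intervals do not include any uncertainty of the scaling between libraries. They ran from -0.28 to 0.71 for RBOHC and from -0.58 to 0.48 for RBOHG. They ran from -0.38 to 0.35 for RBOHH and from -0.35 to 0.35 for RBOHI. None of these 4 was called (limma adjusted p = 0.526, 0.896, 0.966 and 0.998), which does not show that the genotypes are alike. A log2 change of 1 lay outside all 4 intervals. At 1.19 to 1.21 FPKM the added 1 in the log2 scale shrinks any change of RBOHH.

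**Figure D2:**
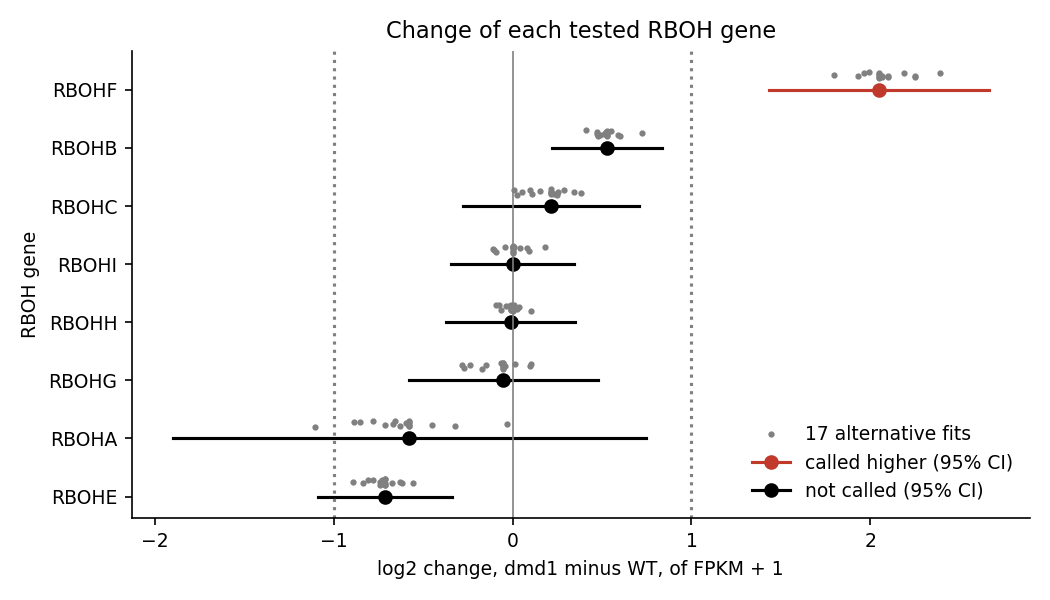
Log2 change (dmd1 minus WT, of FPKM + 1) of the 8 tested RBOH genes with 95% intervals, and above each the values from the 17 alternative fits as small grey points. RBOHF lies at 2.05 with every alternative above 1 (dotted line), while the others lie between -0.72 and 0.53.

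By their means, the same 4 genes headed the order of levels in both genotypes, though RBOHC was the fourth in only 1 of 3 WT libraries. In dmd1 the order of the means was RBOHF, RBOHB, RBOHI, RBOHC, RBOHG, RBOHE, RBOHA, RBOHH and RBOHD. The dmd1 ranges of neighbours in this order did not overlap, except for RBOHE with RBOHA and RBOHA with RBOHH. In WT the order was RBOHF, RBOHB, RBOHI, RBOHC, RBOHE, RBOHA, RBOHG, RBOHH and RBOHD. RBOHF and RBOHB were not separable in WT, where RBOHF was above RBOHB in 1 library of 3. Neighbours from RBOHI to RBOHG also overlapped in WT. RBOHB lay above RBOHI, RBOHG above RBOHH and RBOHH above RBOHD in all 3 WT libraries with no overlap.

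Summed over the 9 genes, the family was at 107, 125 and 165 FPKM in dmd1 libraries 1 to 3 and at 72.8, 61.5 and 60.7 FPKM in WT libraries 1 to 3. Without RBOHF the sums overlapped, at 47.5, 51.3 and 53.4 FPKM in dmd1 and at 55.9, 39.2 and 44.6 FPKM in WT. RBOHF made up 55.4%, 58.8% and 67.6% of the family sum in dmd1 libraries 1 to 3, against 23.1%, 36.2% and 26.5% in WT libraries 1 to 3. The share of RBOHB was 19.4% ± 2.60 in dmd1 and 26.4% ± 1.03 in WT (SD, n = 3 each), although its own FPKM was higher in dmd1. No test was run on these sums or shares.

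**Figure D3:**
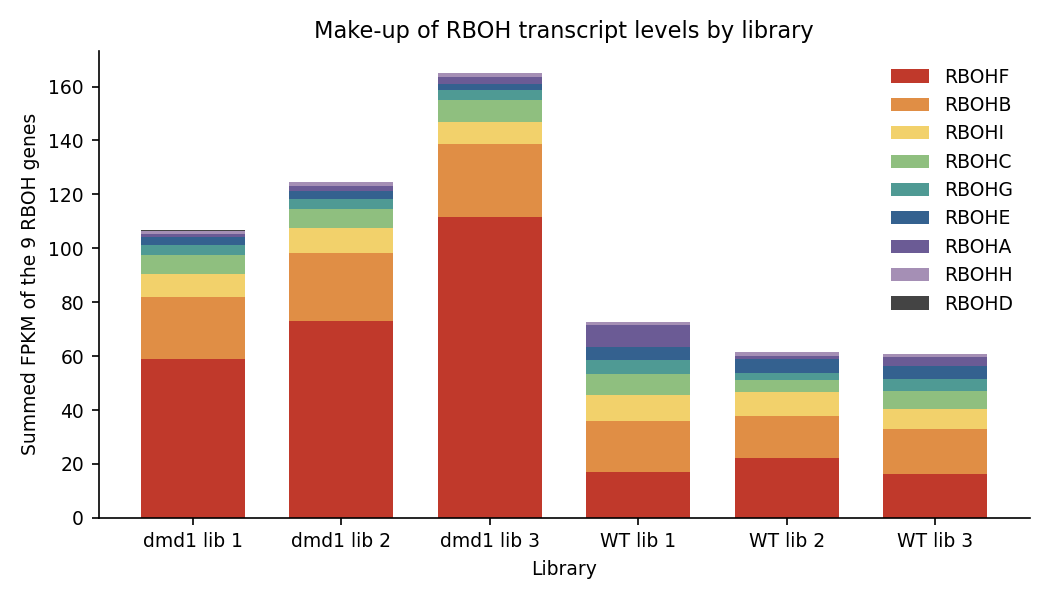
Stacked FPKM of the 9 RBOH genes in each library, dmd1 libraries left and WT libraries right. The RBOHF segment makes up 55.4% to 67.6% of the bar in dmd1 and 23.1% to 36.2% in WT, while the rest of the bar covers 47.5 to 53.4 FPKM in dmd1 and 39.2 to 55.9 FPKM in WT.

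A ratio of 2 genes within a library is free of that library's scaling. The ratio of RBOHF to RBOHB was 2.58, 2.90 and 4.10 in dmd1 libraries 1 to 3 and 0.885, 1.42 and 0.962 in WT libraries 1 to 3. The ratio of RBOHF to RBOHE was 32.1 ± 16.4 in dmd1 and 3.65 ± 0.43 in WT, and that of RBOHB to RBOHE was 9.66 ± 2.46 in dmd1 and 3.44 ± 0.50 in WT (SD, n = 3 each). None of the 3 ratios overlapped between the genotypes. Each gave p = 0.1 in a two-sided exact permutation test of the log2 ratio, also after adjustment over the 3 tests, and 0.1 is the smallest p that 3 against 3 libraries allow. The 3 genes were picked for ranges that did not overlap, so the ratios are a description. For both ratios to RBOHE this choice fixed the outcome of the test in advance.

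Other genes of the pathway were followed in lists, given by symbol. All 7 listed RAC GTPases were tested and none was called higher or lower in limma, while 2 of them, RAC1 and RAC5, had an unadjusted p under 0.05, as did 31.3% of all tested rows. RAC1 (OS01G0229400), known in rice defence as a switch that binds RBOH proteins, was at 27.2, 18.0 and 17.6 FPKM in dmd1 libraries 1 to 3 and at 37.2, 55.1 and 36.2 FPKM in WT libraries 1 to 3. All dmd1 libraries were below all WT libraries, opposite to RBOHF and RBOHB, as in 13.1% of all tested rows. In the same list RAC2 and RAC5 had all dmd1 libraries above all WT libraries, as in 25.3% of all tested rows. The log2 change of RAC1, -0.999 ± 0.24 (SE, limma adjusted p = 0.0418), narrowly missed the fold minimum. RAC1 was called lower in 6 of the 17 alternative fits, among them the fit without dmd1 library 1 (log2 change -1.19). The median log2 change of the RAC list was -0.14.

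Of 10 listed kinases, receptor and scaffold genes upstream of RBOH proteins, all were tested and none was called (0 also passed the adjusted p alone), with a median log2 change of 0.01. RACK1A and CPK5 had an unadjusted p under 0.05, both with positive changes, a smaller share than the 31.3% of all tested rows. The smallest p was that of RACK1A (OS01G0686800), a scaffold of the rice RAC1 immune complex, at 150 ± 6.27 FPKM in dmd1 and 115 ± 18.7 FPKM in WT, and its log2 change was 0.38 ± 0.15 (SE, limma adjusted p = 0.143). The calcium-dependent kinases CPK5 and CPK13, known in rice to activate RBOHH, are given for that role. CPK5 (OS02G0685900) averaged 5.37 ± 0.61 FPKM in dmd1 and 3.02 ± 1.45 FPKM in WT, and CPK13 (OS04G0584600) averaged 31.7 ± 3.65 FPKM in dmd1 and 33.4 ± 8.08 FPKM in WT. Neither was called (limma adjusted p = 0.159 and 0.892).

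Calls among the scavenger genes went in both directions. Of 6 superoxide dismutase genes tested, 1 rose, none fell and 5 were not called, while 3.16% of all tested rows were called higher and 3.54% lower. The median log2 change of the 6 was 0.34. The riser was MNSOD (OS05G0323900), the mitochondrial manganese form, at 408, 429 and 481 FPKM in dmd1 libraries 1 to 3 and at 224, 208 and 197 FPKM in WT libraries 1 to 3 (log2 change 1.06, limma adjusted p = 0.00904). This change lay near the fold minimum, and the call was lost without dmd1 library 2 (limma adjusted p = 0.0527) and without dmd1 library 3 (log2 change 0.99), and also with median-of-ratios scaling (log2 change 0.94).

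Of the 11 listed catalase and ascorbate peroxidase genes, which remove hydrogen peroxide, 10 were tested. Of these, 1 rose, 2 fell and 7 were not called, against the same 3.16% higher and 3.54% lower over all tested rows, and their median log2 change was 0.05. APX5 (OS12G0178100), a mitochondrial ascorbate peroxidase gene, was at 72.4, 66.3 and 62.9 FPKM in dmd1 libraries 1 to 3 and at 162, 199 and 143 FPKM in WT libraries 1 to 3 (log2 change -1.30, limma adjusted p = 0.00735). It was called lower in all 17 alternative fits. APX2 (OS07G0694700), a cytosolic form, averaged 167 ± 40.8 FPKM in dmd1 and 357 ± 62.7 FPKM in WT (log2 change -1.11, limma adjusted p = 0.0306). The catalase gene CATA (OS02G0115700) was at 48.0, 36.9 and 10.6 FPKM in dmd1 libraries 1 to 3 and at 4.67, 3.95 and 5.99 FPKM in WT libraries 1 to 3 (log2 change 2.26, limma adjusted p = 0.04). In the fits without 1 library, APX2 was called in 2 of 6 and CATA in 1 of 6. APX2 was lost without dmd1 library 2 or 3 or WT library 1 or 3, and with equal FPKM totals (log2 change -0.91). CATA was lost without any library except dmd1 library 3, and when all rows above 0 were fitted (limma adjusted p = 0.0637).

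The 2 ferric reductase genes, FRO1 and FRO2, belong to the same superfamily of flavin and haem oxidoreductases as the RBOH genes. FRO1 stayed at or under 0.116 FPKM in every library and was not tested. FRO2 (OS04G0444800) was at 19.9, 23.5 and 34.6 FPKM in dmd1 libraries 1 to 3 and at 17.7, 12.5 and 18.1 FPKM in WT libraries 1 to 3. Its dmd1 libraries kept the same order as those of RBOHF, as did those of RBOHA, RBOHB, RBOHC, RBOHH and RACK1A. The order is thus not particular to FRO2 and RBOHF. The log2 change of FRO2, 0.64 ± 0.24 (SE, limma adjusted p = 0.129), was not called.

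**Figure D4:**
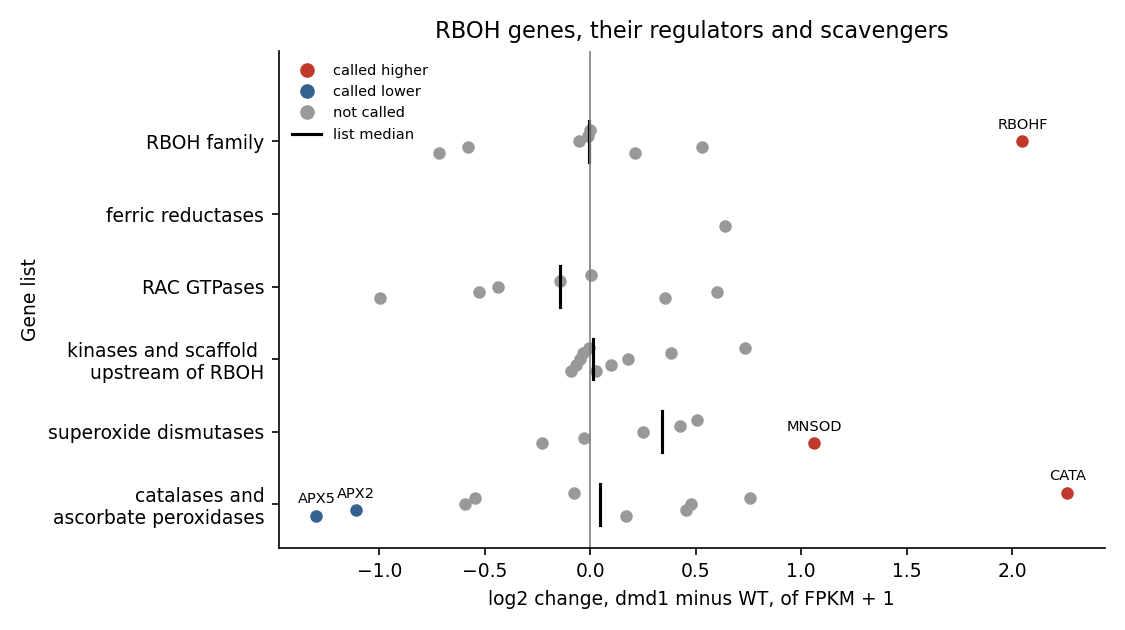
Log2 change (dmd1 minus WT, of FPKM + 1) of the tested genes in 6 lists, with called genes coloured and named and each list of more than 1 tested gene marked at its median. RBOHF lies at 2.05 while the median of its family is -0.01, and calls in both directions appear among the hydrogen peroxide scavengers.

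The gene whose profile was most like that of each tested member was sought among the other 68 genes of all lists. Likeness was the root mean square difference of log2(FPKM + 1) over the 6 libraries, after subtraction of each gene's mean. For RBOHF it was TIP2, a bHLH factor of the early tapetum, at 0.32 log2 units. TIP2 (OS01G0293100) averaged 252 ± 7.82 FPKM in dmd1 and 72.9 ± 9.91 FPKM in WT. This measure rests mostly on the size of the genotype difference. Within dmd1 the order was the reverse, with TIP2 at 261, 252 and 245 FPKM in libraries 1 to 3, highest where RBOHF was lowest. These TIP2 values lie close together, and the FPKM totals of the same libraries also fell, at 1050340, 909829 and 808227. Whether the reverse order holds under another scaling was not tested. For RBOHB it was RACK1A at 0.10, for RBOHE the catalase gene CATB at 0.18 and for RBOHC the GTPase gene RAC5 at 0.12. For RBOHG it was CPK13 at 0.09, for RBOHH the kinase gene RLCK176 at 0.05 and for RBOHI the superoxide dismutase gene SODCP at 0.07. Genes that vary little over the 6 libraries lie near each other by this measure. The small distances of RBOHH and RBOHI therefore do not show a shared profile. RBOHA had no close match, as the nearest gene, the photosystem gene PSBP, was 0.43 away.

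Some of the listed cell type markers differed between the genotypes as well. The 8 tapetum markers were present in every library, with 1 called higher and 4 lower. Over all tested rows 3.16% were called higher and 3.54% lower. The 8 markers summed to 3591 to 8403 FPKM in dmd1 and 34238 to 35099 FPKM in WT. Most of the WT sum came from C6, PKS1, CYP704B2 and CYP703A3, with WT means of 4946 to 11532 FPKM. The sum thus does not stand for the whole list. TIP2 was the marker called higher, and EAT1, PKS1, CYP704B2 and CYP703A3 were those called lower. C6, the largest part of the WT sum, was not called (limma adjusted p = 0.103). It was at 2039, 360 and 2.39 FPKM in dmd1 libraries 1 to 3. TDR averaged 881 FPKM in dmd1 and 933 FPKM in WT, UDT1 averaged 16.7 and 15.7 FPKM, and neither was called. Of 5 pistil and floret organ markers 4 were tested and 2 of these, DL and MADS13, were called higher, against 3.16% of all tested rows. The 5 markers summed to 28.4 to 44.5 FPKM in dmd1 and 8.33 to 15.8 FPKM in WT. The ovule gene MADS21 was listed at 0 in WT library 3. Of 9 green tissue markers 8 were tested and 1 was called lower, against 3.54% of all tested rows. The 9 markers summed to 269 to 354 FPKM in dmd1 and 372 to 631 FPKM in WT. The 2 germ cell markers, neither called, summed to 10.1 to 12.0 FPKM in dmd1 and 7.64 to 9.77 FPKM in WT. They went opposite ways, as REC8 (OS05G0580500) averaged 7.47 ± 0.76 FPKM in dmd1 and 3.64 ± 0.13 FPKM in WT, and MEL1 (OS03G0800200) 3.40 ± 0.50 FPKM in dmd1 and 4.72 ± 1.28 FPKM in WT. REC8 passed the limma adjusted p (0.0147) and missed the fold minimum. Within dmd1, RBOHF was highest in library 3, where the tapetum sum was lowest, and lowest in library 1, where the pistil and floret organ sum was highest. The part of these cell types in the RBOHF result was not tested.

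**Figure D5:**
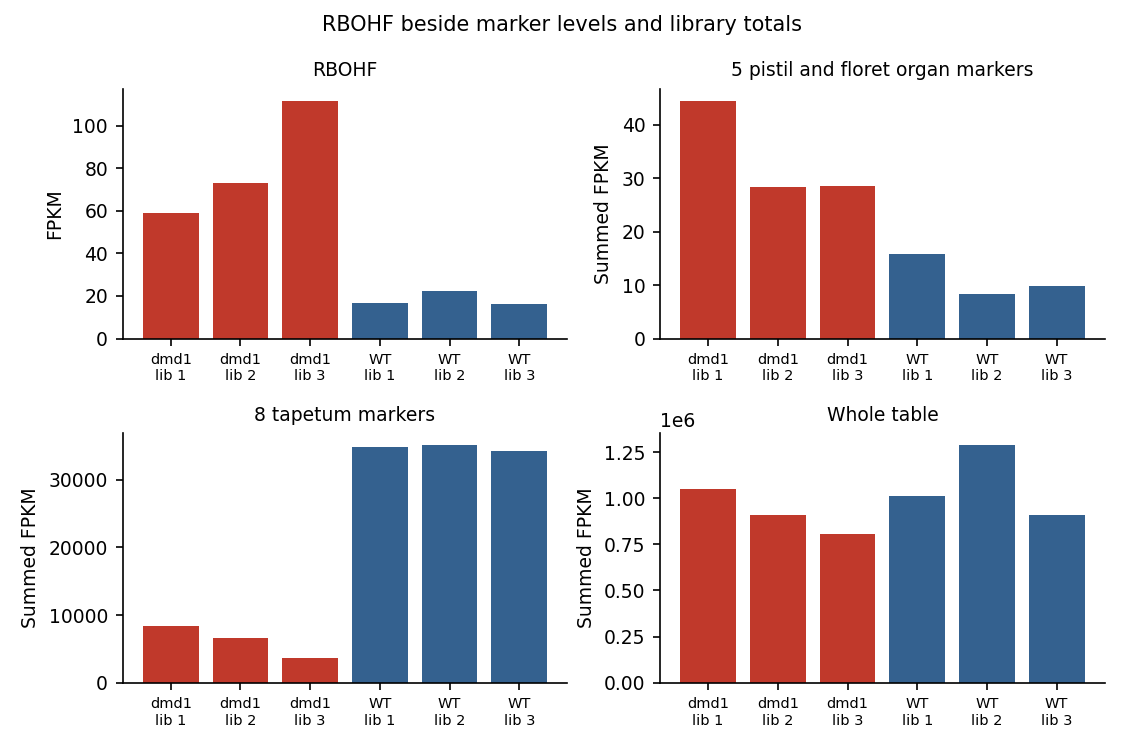
FPKM of RBOHF, summed FPKM of the pistil and floret organ markers, summed FPKM of the tapetum markers and summed FPKM of the whole table, in each library with dmd1 left (red) and WT right (blue). RBOHF peaks in dmd1 library 3 at 112 FPKM, where the table sum is 808227, and the pistil and floret organ markers peak in dmd1 library 1 at 44.5 FPKM.

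Library-wide differences were present. The FPKM total was 1050340, 909829 and 808227 in dmd1 libraries 1 to 3 and 1009275, 1287424 and 909365 in WT libraries 1 to 3. Calls over all rows numbered 806 higher and 903 lower. With library totals made equal these counts were 1491 and 878, and after median-of-ratios scaling they were 677 and 1196. The median log2 change over tested rows was 0.12 as deposited, 0.29 once totals were equal and 0.02 after median-of-ratios scaling. RBOHF had log2 changes of 2.25 and 1.93 under these 2 scalings, and was called in both. Among the tested members, WT library 1 held the highest WT value of 5 and the lowest of none, and dmd1 library 3 held the highest dmd1 value of 5.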

How the data were processed

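RNA from 3 dmd1 and 3 wild-type rice anther samples was measured by RNA-seq. The authors deposited 1 table of FPKM values, with 1 column per library. The submitters' processing notes name fastp, HISAT, RSEM and the build IRGSP-1.0. Tool versions, the annotation, the strand setting, filters and the handling of reads that match several RBOH genes were not given in the sources used here. Since FPKM is a normalized unit, count models were not applied, depth is unknown and no counting interval is given. Columns were matched to libraries by name.

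Rows with FPKM of at least 1 in at least 3 of 6 libraries (25474 rows) were transformed to log2(FPKM + 1). This scale understates changes of low genes. The contrast dmd1 minus WT was fitted on all these rows with limma 3.58.1 (R 4.3.3), with a trended and robust empirical Bayes step, Benjamini-Hochberg adjustment over all tested rows and no replicate block. The fit was also run on simulated data, and no result here is drawn from that run. The 17 alternative fits changed the pseudocount, the filter, the scaling or the variance model, weighted the libraries, blocked by replicate number, or left libraries out.

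The members and lists were chosen with earlier results of these data known. Symbols come from general knowledge and were not checked against an annotation. All 9 members were named. From each pathway list all called genes were named, or the gene with the smallest p where none was called. CPK5 and CPK13 were added for their known role, and RAC2, RAC5, DL, MADS13, REC8 and MEL1 after their values were seen. The tapetum markers EAT1, C6, PKS1, CYP704B2, CYP703A3, TDR and UDT1 were also named after their values were seen. For each tested member the most similar listed gene was named too. Coordinates and sequences are not given, because no genome of the build was used.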

Additional observations from a re-analysis of the deposited data

How the results depend on the processing

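RBOHF was called higher in all 17 alternative fits, and the count of RBOH members was 1 higher and 0 lower in each. RBOHG, RBOHH and RBOHI, whose changes lay near 0, turned sign in some fits. With equal totals their log2 changes were 0.10, 0.10 and 0.18. RBOHI was at 0.079 with library weights, and without both WT library 2 and dmd1 library 1 RBOHH was at 0.037 and RBOHI at 0.0043. Without 1 library they ran from -0.27 to 0.10 for RBOHG, from -0.067 to 0.024 for RBOHH and from -0.094 to 0.090 for RBOHI. The cause was not tested.

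RAC GTPases had 1 lower call with a pseudocount of 0.1, quantile normalization, median-of-ratios scaling, library weights or both libraries left out, and 0 to 1 without 1 library. Superoxide dismutases had 0 higher calls with median-of-ratios scaling and 0 to 1 without 1 library. Catalases and ascorbate peroxidases had 0 higher calls with no filter, the replicate block or both libraries left out, and 0 to 1 without 1 library. Their lower calls numbered 1 with equal totals and 1 to 2 without 1 library. Over the whole table higher calls numbered 1491 with equal totals and 1470 with library weights, and 332 to 923 without 1 library, while lower calls numbered 323 to 891 without 1 library. Fits without 1 library have fewer samples. The weights stopped short of convergence.

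Libraries of the 2 genotypes share the numbers 1 to 3, but no label ties them. Same-numbered libraries had correlations of deviations of -0.35, -0.01 and 0.35, so the numbers were not taken to pair them. With the replicate block RBOHF stayed called (log2 change 2.05, limma adjusted p = 0.0294), and RBOHB and RBOHE had adjusted p of 0.108 and 0.0776. The depth behind low values such as those of RBOHD is unknown.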
